A study of Mus musculus with 6 samples.

Results

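The genes described here encode 38 core proteins of the spliceosome. They are proteins of the U1 and U2 particles, the SF3a and SF3b complexes, the factors that bind the branch point and the 3′ splice site, the Sm ring, the U4/U6 and U5 particles, the Prp19 complex, and helicases that drive the splicing cycle. They were chosen by gene name, and all 38 names were found among the 54532 genes of the table. RNA of whole ovaries from mice labelled C57BL/6 was sequenced at 16.5 days post-coitus (dpc), when oocytes are in meiotic prophase I, in 3 Ctrl and 3 cKO libraries. The cKO ovaries were *Stra8-GFPCre* *Srsf1* Fl/Fl, in which Cre removes coding exons of *Srsf1* in germ cells from the start of meiosis, and the somatic cells of the same ovary keep the gene. The labels give Ctrl as wild type, and they do not say whether Ctrl ovaries carried the Cre transgene or the floxed allele. The comparison asks whether the RNA of the basal splicing machinery differed in ovaries whose germ cells lack SRSF1, a splicing factor of the SR family.

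Introns are removed by the spliceosome, which is assembled anew on each pre-mRNA from small nuclear ribonucleoprotein particles (snRNPs). U1 pairs with the 5′ splice site, SF1 and the U2AF pair of proteins mark the branch point and the 3′ splice site, and U2 then takes the branch point with the help of SF3a and SF3b. The U4/U6 and U5 particles join as a tri-snRNP, helicases unwind U4 from U6, and the Prp19 complex holds the active site together. SR proteins such as SRSF1 bind exons and recruit these particles, so they choose among sites and do not carry out the reaction.

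The promoters of 5 members are shown to let the described genes be read next to their sequence. *Prpf19* had the highest and *Sf3b3* the lowest log2 fold change of the members, and *Sf3b2*, *Sf3a3* and *Snrnp70* hold a short motif that many housekeeping promoters share. Each run is the 120 bases that end just before an annotated transcription start, read 5′ to 3′ on the gene's own strand, from RefSeq on GRCm38.p6. Capitals mark a match to 1 of 4 motifs, searched on both strands, namely CCGGAAGT (bound by ETS factors), GCATGCGC (NRF1), AAGATGGCG (YY1) and TATAAA (the TATA box).
*Prpf19*, chr19:10895111-10895230, plus strand: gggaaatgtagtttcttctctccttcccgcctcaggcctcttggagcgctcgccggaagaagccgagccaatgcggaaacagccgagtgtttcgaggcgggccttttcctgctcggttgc
*Sf3b3*, chr8:110846804-110846923, minus strand: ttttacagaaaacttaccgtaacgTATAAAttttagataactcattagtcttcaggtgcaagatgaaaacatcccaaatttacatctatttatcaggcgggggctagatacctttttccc
*Sf3b2*, chr19:5295456-5295575, minus strand: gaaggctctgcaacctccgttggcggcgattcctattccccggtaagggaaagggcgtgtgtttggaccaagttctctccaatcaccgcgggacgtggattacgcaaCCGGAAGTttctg
*Sf3a3*, chr4:124714741-124714860, plus strand: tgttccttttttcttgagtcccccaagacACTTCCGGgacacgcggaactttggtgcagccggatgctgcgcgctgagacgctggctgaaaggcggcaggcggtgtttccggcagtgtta
*Snrnp70*, chr7:45395743-45395862, minus strand: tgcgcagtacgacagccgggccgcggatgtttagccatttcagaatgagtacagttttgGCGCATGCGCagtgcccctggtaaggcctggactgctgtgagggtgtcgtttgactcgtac
The *Prpf19* run holds none of the 4 motifs. The *Sf3b3* run holds the letters TATAAA, whose first base lies 96 bases before the annotated start, and their use as a TATA box was not tested. In *Snrnp70* the capitals cover overlapping matches on the 2 strands, since the motif is nearly its own reverse complement. RefSeq promoters, each 250 bases before to 50 bases after a start, were matched for 31 of the 38 members. *U2af2*, *Sf3b4*, *Sf3b5*, *Snrpb*, *Snrpd1*, *Eftud2* and *Dhx38* had none in the table used. The ETS motif was found in 6 of the 31 (19.4%), against 8.74% of the 11243 genes tested for expression that have a promoter in the table and 4.31% of all 27025 genes in it. These 6 were *Sf3a1*, *Sf3a3*, *Sf3b2*, *Snrpe*, *Prpf6* and *Dhx8*. The NRF1 motif was found in 2 (6.45% against 5.89% of genes tested), *Snrnp70* and *Sf1*, and the YY1 motif in 1 (3.23% against 3.3%), *Sf3a1*. The letters GGGCGG, which SP factors bind and which were not capitalised, were found in 17 (54.8% against 67.1%), and TATAAA in 2 (6.45% against 8.71%). The median promoter of a member held 24 CpG dinucleotides, against 20 for genes tested and 7 for all promoters. A match describes these letters in this window and was not tested as a binding site.

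Reads on genes lay between 14212164 and 16784241 per library, and the members had 127 to 9991 reads each in a library. *Srsf1* was checked first. Its FPKM (fragments per kilobase of gene, divided by 1 scale per library) was 80.2, 70.1 and 63.1 in Ctrl and 32.4, 37.0 and 36.4 in cKO. Every cKO library was below every Ctrl library. The log2 fold change was −0.99 (limma, 95% interval −1.30 to −0.68, p = 0.000158, Benjamini-Hochberg adjusted p = 0.497), and the two-sided exact permutation test gave p = 0.1, the smallest that 3 libraries against 3 allow. Germ cell genes varied among the libraries and leaned towards higher values in cKO. The summed level of 10 germ cell markers was between 123 and 470 FPKM in Ctrl and between 226 and 678 in cKO. Of these markers, 9 had a log2 fold change above 0 and 1 below, with a median of 0.60. The 8 pregranulosa cell markers summed to 572 to 704 in Ctrl and 564 to 803 in cKO. The 7 red blood cell markers summed to 4860 to 23000 in Ctrl and 1700 to 10400 in cKO, and the 10 proliferation markers to 345 to 542 and 324 to 443. Of the red blood cell markers, 6 had a log2 fold change below 0, while *Hbb-y* was higher in cKO (2.10). The part of these cell types in the member values was not tested, except that a fit with the level of the germ cell list as a covariate is given with the processing alternatives. The protocol text of the labels speaks of another tissue, the retina. The 5 retina markers summed to at most 0.525 FPKM in any library, and *Crx*, which defines photoreceptors, was at 0 in all 6.

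All 38 members had levels above the median of the genes tested. Their mean level over the 6 libraries ran from 9.03 FPKM (*Prpf4*) to 88.1 FPKM (*Snrpd1*), with a median of 26.6 FPKM, against a median of 5.97 FPKM over the 17180 genes tested (those with a mean of at least 0.5 FPKM). That median level was above 87.7% of the genes tested, and the level of *Prpf4* above 61.5%. All 38 passed the filter on low values.

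**Figure D1:**
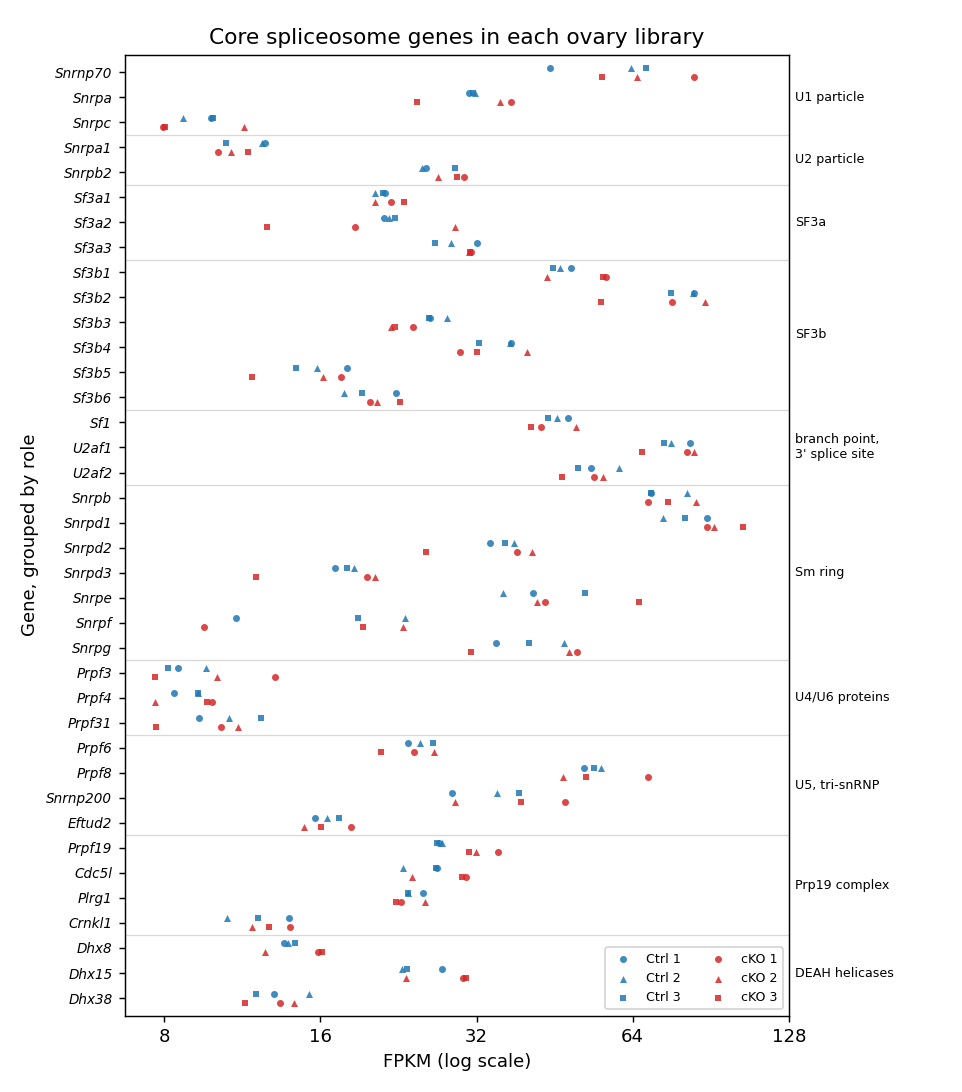
FPKM (log scale) of each of the 38 core spliceosome genes in the 3 Ctrl libraries (blue) and 3 cKO libraries (red), grouped by role, with 1 marker shape per replicate number. The ranges of Ctrl and cKO overlap for 35 genes, and are separate for *Prpf19* and *Snrpd1* (cKO higher) and for *Sf3b3* (cKO lower).

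Between the groups the members differed little in FPKM of the whole gene. The splicing of the members' own transcripts was not examined. The median log2 fold change, cKO minus Ctrl on the log2(FPKM + 1) scale, was 0.02 over the 38 members and −0.01 over all genes tested, with 20 members above 0 and 18 below. The values ran from −0.22 (*Sf3b3*) to 0.26 (*Prpf19*). The median size of the change, regardless of direction, was 0.076 in members and 0.133 in all genes tested. The members had higher levels than most genes tested, and neither this size nor the intervals below were compared with genes of equal level. At an unadjusted p below 0.05, 1 of 38 members was called, *Prpf19*, while 4.43% of all genes tested were called (460 higher and 301 lower in cKO). At an adjusted p below 0.05 limma called no member and no gene (0.0% of genes tested), and the smallest adjusted p of a member was 0.978. For 3 members the groups did not overlap, against 8.68% of all genes tested, so neither share stood above its background. The 95% intervals give the size of change that these libraries allow. For all 38 members the interval lay within a 2-fold change in either direction, as it did for 83.4% of genes tested, and for 31 it lay within a 1.5-fold change, as for 52.0% of genes tested. With a pseudocount of 0.1 or the germ cell covariate the interval lay within 2-fold for 37 members, and with a library left out for 36 or 37. The p-values measure the spread between these libraries, which the study gives as biological replicates. In whole ovaries, fewer cells of a type and less RNA per cell cannot be told apart, and a change confined to germ cells would be diluted by the RNA of all other cells.

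**Figure D2:**
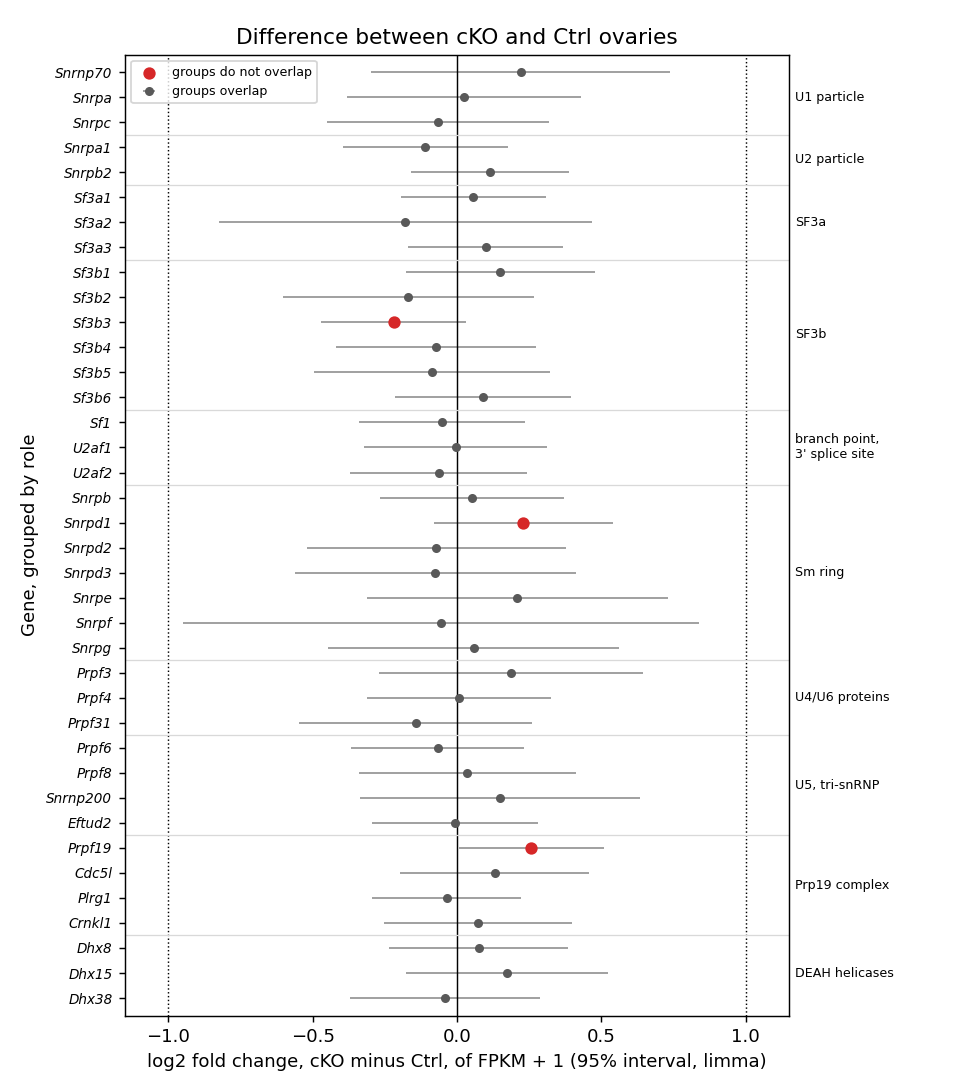
Log2 fold change (cKO minus Ctrl, of FPKM + 1) of each member with its 95% interval from limma, grouped by role. Dotted lines mark a 2-fold change in either direction, all 38 intervals stay inside them, and red points mark the 3 members whose groups do not overlap.

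U1 particle. The members *Snrnp70*, *Snrpa* and *Snrpc* encode the proteins particular to the particle that first meets the 5′ splice site. None was called, and their log2 fold changes ran from −0.07 to 0.22. *Snrnp70* had 44.4, 63.6 and 68.0 FPKM in Ctrl and 84.1, 65.2 and 55.9 in cKO. Ctrl 1 was the lowest and cKO 1 the highest, and the groups overlapped (log2 fold change 0.22, 95% interval −0.30 to 0.74, limma p = 0.345, adjusted p = 0.978, exact permutation p = 0.5). *Snrpc* had 9.86, 8.70 and 9.94 FPKM in Ctrl and 7.96, 11.4 and 8.04 in cKO, with the highest and the 2 lowest values all in cKO (log2 fold change −0.07, −0.45 to 0.32). *Snrpa* was tight in Ctrl at 31.4 ± 0.433 FPKM (SD, n = 3) and wide in cKO at 32.5 ± 6.87, where cKO 3 was the lowest library at 24.6 FPKM.

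U2 particle, SF3a and SF3b. *Snrpa1* and *Snrpb2* encode proteins of the U2 particle. *Snrpb2* had 25.6, 25.1 and 29.1 FPKM in Ctrl and 30.2, 27.0 and 29.3 in cKO, with overlapping groups (log2 fold change 0.12, 95% interval −0.16 to 0.39). *Snrpa1* was at 11.8 ± 1.08 FPKM in Ctrl and 10.8 ± 0.72 in cKO (log2 fold change −0.11, −0.40 to 0.18). The SF3a subunits *Sf3a1*, *Sf3a2* and *Sf3a3* lay close together, between 20.9 and 30.1 FPKM on average. *Sf3a1* was among the steadiest members, its highest library being 1.14 times its lowest. *Sf3a2* had 21.3, 21.7 and 22.3 FPKM in Ctrl and 18.7, 29.1 and 12.6 in cKO. The 3 Ctrl libraries lay within the wide range of the cKO libraries, and cKO 2 was 2.30 times cKO 3 (log2 fold change −0.18, 95% interval −0.82 to 0.47, limma p = 0.532, exact permutation p = 0.7). Without cKO 2 this gene passed the unadjusted limit of limma with a log2 fold change of −0.47. Without cKO 3 its log2 fold change was 0.10, and it did not pass. The size and the sign of its change thus depended on whether cKO 2 or cKO 3 was kept. *Sf3a3* was at 29.1 ± 2.75 FPKM in Ctrl and 31.1 ± 0.137 in cKO.

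SF3b grips the branch point region. Of its 6 subunits among the members, 4 had a log2 fold change below 0, and none passed the limit. *Sf3b3*, whose large protein forms the scaffold around SF3B1, had 26.1, 28.0 and 25.9 FPKM in Ctrl and 24.2, 21.9 and 22.3 in cKO. Every cKO library was below every Ctrl library. The log2 fold change was −0.22 (fold 0.859, 95% interval 0.722 to 1.02, limma p = 0.0791, adjusted p = 0.978, exact permutation p = 0.1), the lowest value among the members. *Sf3b2* was the third highest member by deposited FPKM, with 83.9, 83.6 and 75.9 FPKM in Ctrl and 76.3, 88.2 and 55.6 in cKO. cKO 3 stood below the other 5 libraries, and cKO 2 was the highest (log2 fold change −0.17, −0.60 to 0.27). *Sf3b1*, which carries the pocket for the branch point adenosine, was at 46.7 ± 1.93 FPKM in Ctrl and 52.2 ± 7.43 in cKO, and passed the unadjusted limit without cKO 2. *Sf3b4*, *Sf3b5* and *Sf3b6* had log2 fold changes of −0.07, −0.09 and 0.09.

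Branch point and 3′ splice site factors. *Sf1*, *U2af1* and *U2af2* were among the more abundant members, at means of 45.1, 77.4 and 53.4 FPKM, and their log2 fold changes were −0.05, −0.004 and −0.06. *U2af1*, whose protein reads the AG at the 3′ splice site, had 82.7, 75.8 and 73.6 FPKM in Ctrl and 81.3, 84.1 and 66.8 in cKO. Its groups overlapped, with cKO 2 highest and cKO 3 lowest (fold 0.997, 95% interval 0.801 to 1.24). *U2af2*, whose protein binds the polypyrimidine tract, had 53.2, 60.3 and 50.3 FPKM in Ctrl and 54.0, 56.0 and 46.8 in cKO, again with cKO 3 lowest (fold 0.958, 0.774 to 1.18).

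Sm ring. The 7 Sm proteins close into a ring around the RNA of the U1, U2, U4 and U5 particles, with 1 copy of each in a ring. Their deposited FPKM differed 5.02-fold, from 17.5 (*Snrpf*) to 88.1 (*Snrpd1*). *Snrpd1* had 88.9, 73.3 and 80.8 FPKM in Ctrl and 88.9, 91.9 and 105 in cKO. The groups did not overlap, but only just, since cKO 1 was 88.93 FPKM and Ctrl 1 was 88.91. The log2 fold change was 0.23 (fold 1.17, 95% interval 0.947 to 1.45, limma p = 0.121, adjusted p = 0.978, exact permutation p = 0.1). Once the reads of a near-identical copy of *Snrpd1* were added to it, an alternative chosen after the values were seen, its groups overlapped. *Snrpb*, *Snrpd2*, *Snrpd3*, *Snrpe*, *Snrpf* and *Snrpg* had log2 fold changes from −0.08 to 0.21 and none was called. cKO 3 was the lowest library for *Snrpd2* (25.6 FPKM against 33.9 to 40.9 elsewhere), *Snrpd3* (12.0 against 17.1 to 20.4) and *Snrpg* (31.2 against 34.9 to 49.9), and the highest for *Snrpe* (65.8 against 35.9 to 51.9) and *Snrpd1*. The Sm genes thus did not move as a block within that library. *Snrpf* varied most of all members, its highest library being 2.44 times its lowest. It had 11.0, 23.3 and 18.9 FPKM in Ctrl and 9.54, 23.1 and 19.3 in cKO, so that Ctrl 1 and cKO 1 were low and the other 4 high, and its interval was the widest among members (log2 fold change −0.06, −0.95 to 0.84). It also had the fewest reads, 127 to 334 a library. In the annotation its 861 exon bases are partly overlapped by genes on the other strand, *Ccdc38* and *4933408J17Rik*. The overlaps with these genes add up to 735 bases, where a base under both genes is counted for each. No source used here says whether reads were assigned by strand.

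U4/U6 and U5 proteins. *Prpf3*, *Prpf4* and *Prpf31*, whose proteins belong to the U4/U6 particle, had low levels among the members, 9.03 to 10.3 FPKM on average. *Prpf4* had 8.36, 9.30 and 9.28 FPKM in Ctrl and 9.88, 7.67 and 9.69 in cKO (log2 fold change 0.01, 95% interval −0.31 to 0.33). *Prpf3* had 8.50, 9.61 and 8.12 FPKM in Ctrl and 13.1, 10.1 and 7.66 in cKO (log2 fold change 0.19, −0.27 to 0.64). In *Prpf3* the highest and the lowest library were both cKO, and in *Prpf4* likewise. *Prpf31* had a log2 fold change of −0.14 (−0.55 to 0.26). Of the U5 and tri-snRNP proteins, *Prpf8*, the scaffold of the catalytic center, was at 53.7 ± 2.08 FPKM in Ctrl and 55.8 ± 11.2 in cKO. *Snrnp200*, the helicase that unwinds U4 from U6, had 28.7, 35.1 and 38.7 FPKM in Ctrl and 47.3, 29.0 and 39.1 in cKO. Its groups overlapped, with Ctrl 1 and cKO 2 low and cKO 1 high (log2 fold change 0.15, −0.34 to 0.64). *Eftud2*, a GTPase of U5, and *Prpf6*, a bridge of the tri-snRNP, had log2 fold changes of −0.01 and −0.07.

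Prp19 complex and helicases. *Prpf19* encodes the ubiquitin ligase at the center of the Prp19 complex, and its promoter is the first of those printed above. It had 27.1, 27.5 and 26.8 FPKM in Ctrl and 35.1, 31.9 and 31.0 in cKO. The 3 Ctrl libraries lay close together, at 27.1 ± 0.349 FPKM, and every cKO library was above them. The log2 fold change was 0.26, the highest of the members (fold 1.20, 95% interval 1.00 to 1.42, limma p = 0.0457, adjusted p = 0.978, exact permutation p = 0.1). The value rested on 2952 to 3953 reads a library. The gene failed the correction over all genes tested, and it lost the unadjusted call under 6 of 11 processing alternatives while its log2 fold change stayed between 0.24 and 0.27. It also lost the call when Ctrl 1, Ctrl 2, Ctrl 3 or cKO 1 was left out (log2 fold changes 0.26, 0.27, 0.25 and 0.21) and kept it without cKO 2 or without cKO 3. The other 3 genes of the complex, *Cdc5l*, *Plrg1* and *Crnkl1*, had log2 fold changes of 0.13, −0.04 and 0.07 with overlapping groups, and *Plrg1* was as steady as *Sf3a1*. The helicase genes *Dhx8* (release of the spliced mRNA), *Dhx15* (disassembly of the spliceosome) and *Dhx38* (remodeling before the second step) had log2 fold changes of 0.08, 0.17 and −0.04. *Dhx15* had 27.4, 23.0 and 23.5 FPKM in Ctrl and 30.2, 23.4 and 30.6 in cKO, where cKO 2 alone fell among the Ctrl values (95% interval −0.18 to 0.52, limma p = 0.279, exact permutation p = 0.3). Without cKO 2 it passed the unadjusted limit of limma, with a log2 fold change of 0.30.

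The spread among libraries was wider in cKO than in Ctrl. The SD of log2(FPKM + 1) was larger in cKO for 30 of the 38 members, against 60.4% of all genes tested, with a median SD over members of 0.113 in Ctrl and 0.189 in cKO. Over all genes tested these medians were 0.169 and 0.226. cKO 3 was the lowest of the 6 libraries for 15 members, and it was the lowest for 22.8% of all genes tested. cKO 1 was the highest for 13 members and cKO 2 for 11 (17.4% and 22.3% of genes tested). The deviation of each library from the mean of the 6 was set beside the GC content of each member's longest coding transcript, which ran from 39.4% (*Snrpb2*) to 62.2% (*Sf3a2*). Across the 38 members, which share their libraries and are not independent, Pearson's r with GC content was −0.555 in cKO 3, 0.329 in cKO 2 and 0.05 in cKO 1, while Ctrl 1, 2 and 3 gave 0.062, 0.379 and 0.016. Across the 13455 genes tested with a GC value, cKO 3, 2 and 1 gave −0.426, 0.438 and −0.227, and the Ctrl libraries gave 0.082, 0.262 and −0.033. In cKO 1 the members' r was near 0 where that of all genes was negative, and the difference was not tested. In the 19 members of higher GC content the median deviation of cKO 3 was −0.156, with 14 below 0, and in the 19 of lower GC content it was 0.083, with 7 below 0. The median log2 fold change was −0.04 in the higher GC members and 0.07 in the lower, beside −0.05 and 0.03 for the genes tested above and up to the members' median GC content. The part of GC content in the member values was not tested.

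**Figure D3:**
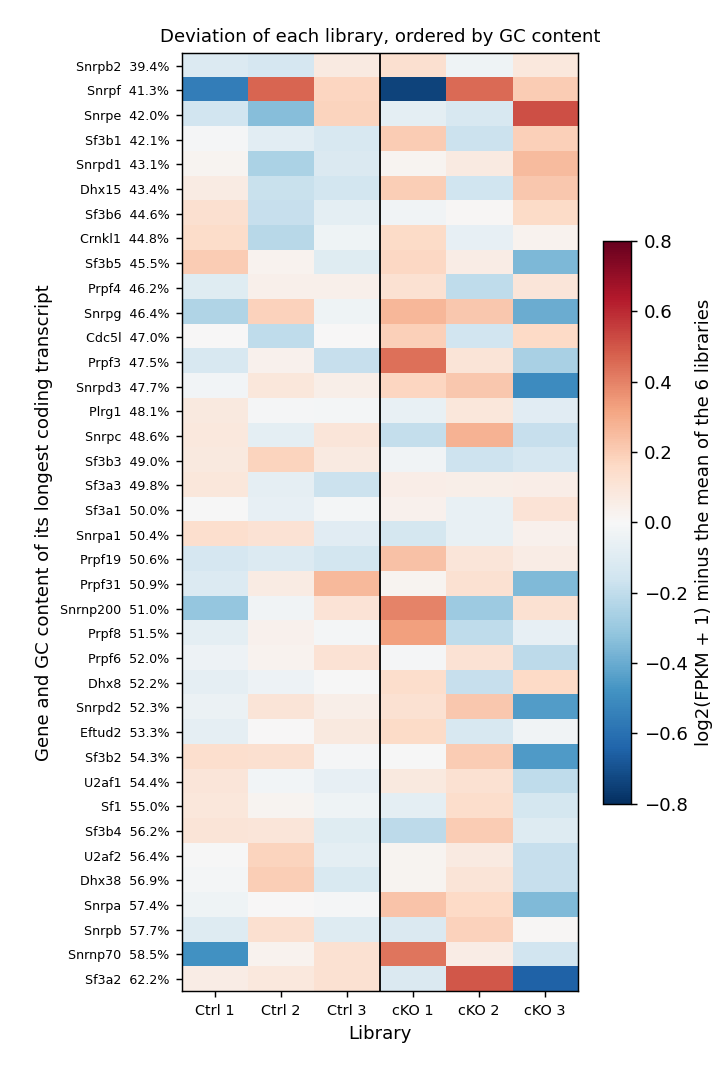
Deviation of log2(FPKM + 1) in each library from the mean of the 6 libraries (color), for the 38 members ordered from low to high GC content of the coding transcript. In cKO 3, 14 of the lower 19 cells are blue (below the mean) and 7 of the upper 19, *Sf3a2* at the bottom is among the darkest blue, and *Snrpe* and *Snrpd1* near the top are red.

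The order of levels depended on the length used. The deposited gene length equals the union of all annotated exons for 35 of the 38 members, so it includes exons outside the main coding transcript. Reads on those exons were counted too, and their share was not measured. The 3 exceptions are the 3 highest members, *Snrpd1* (837 bases in the table, 2052 in the exon union), *U2af1* (974 and 2598) and *Sf3b2* (3231 and 6822). Their start or end in the table also differs from that in GENCODE M21, so their reads were counted on another gene model. How much of their top ranks comes from the shorter lengths was not tested. With the exon union for every member and the same reads, a scale chosen after the values were seen, *Snrpd1* would be at 35.9 FPKM (rank 11), *U2af1* at 29.0 (rank 17) and *Sf3b2* at 36.6 (rank 9). *Snrpb* would then be the highest member, and the Sm ring would span 4.27-fold. The values of *Snrpd1*, *U2af1* and *Sf3b2* on this scale may be too low. Reads on exons outside the table's gene model may not have been counted. Dividing the same reads by the length of the transcript with the longest coding part, also chosen after the values were seen, gave yet another order, and it does not touch the ratio between libraries. Reads on all exons are kept, so this scale can overstate members with many reads outside that transcript. *Snrpc*, with a gene length of 6521 bases and a coding transcript of 882 bases, moved from rank 37 to rank 11 of 38 (9.32 to 68.9 on the FPKM scale). *Snrnp70* moved from rank 5 to rank 1, at 279, *Dhx15* from rank 20 to rank 9, and *Snrpd1* from rank 1 to rank 6. On this scale the U1 proteins lay within 4.05-fold of each other and not 6.82-fold, while the Sm ring spread from 17.5 (*Snrpf*) to 127 (*Snrpb*), or 7.26-fold. The U4/U6 proteins, within 1.14-fold of each other in FPKM, differed 2.01-fold on this scale. *Prpf4* was the lowest member on all 3 scales.

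**Figure D4:**
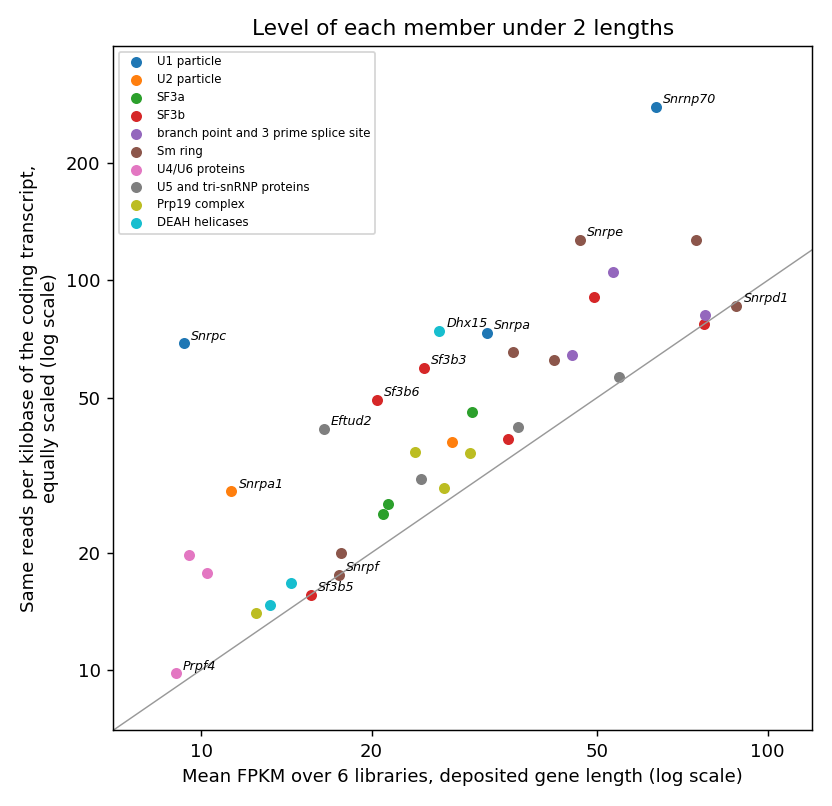
Mean FPKM of each member over the 6 libraries with the deposited gene length (x axis, log scale) against the same reads per kilobase of the coding transcript, equally scaled (y axis, log scale), colored by role. Points far above the line of equal values, such as *Snrpc* and *Snrnp70*, have a gene length much above that of their coding transcript.

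Several members have processed pseudogenes that nearly repeat their coding sequence, and reads from such copies can be counted on either gene. With at least 95% identity over at least 50% of the coding sequence, 11 members had a copy in the table. For 7 of them the copies held at most 5.29% of the summed reads in any library, and for *Snrpg*, *Snrpe*, *Snrpf* and *U2af1* they held more. The copy of *Snrpg*, *Gm8186* (chr17:26098872-26099257, minus strand), is identical to its coding sequence. It had 50.8, 42.9 and 25.4 FPKM in Ctrl and 20.9, 26.3 and 21.7 in cKO, lower in cKO on average but with overlapping groups, since cKO 2 exceeded Ctrl 3 (log2 fold change −0.71, 95% interval −1.32 to −0.11, limma p = 0.0276, adjusted p = 0.978, exact permutation p = 0.2). Its reads were 9.36% to 26.4% of the summed reads of *Snrpg* and copies. Adding them moved the log2 ratio of mean cKO to mean Ctrl from 0.08 to −0.05, so its sign depends on where these reads are placed. For *Snrpe* the copy *Snrpert* (chr2:131322088-131322366, 98.9% identical) ran from 18.7 to 53.8 FPKM and took 6.82% to 23.3% of the summed reads, least in Ctrl 3. With the copy added, the ratio of the highest to the lowest library of *Snrpe* went from 1.83 to 1.57. The copies took 3.28% to 16.4% for *Snrpf* (*Gm13092*) and 5.04% to 11.9% for *U2af1* (*Gm10232*). With the copies added for all 11, the median log2 fold change of the members was 0.001, and the groups did not overlap for 2 members, *Sf3b3* and *Prpf19*, in place of 3. Values of these members and their copies are uncertain to this extent.

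**Figure D5:**
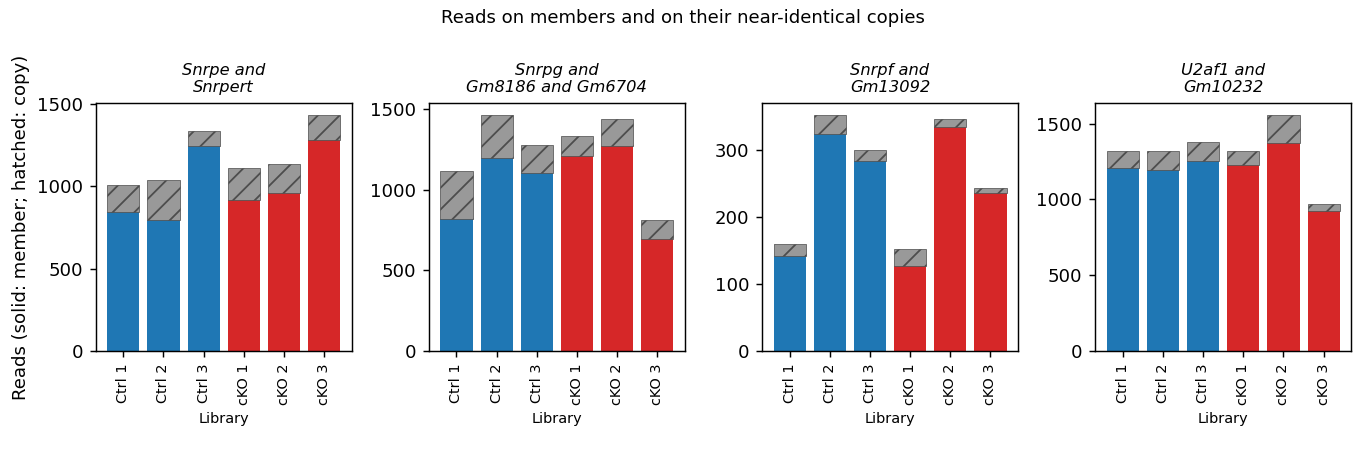
Reads per library on *Snrpe*, *Snrpg*, *Snrpf* and *U2af1* (solid bars, Ctrl blue and cKO red) and on their near-identical copies (hatched, stacked on top). The copy share is largest in Ctrl 1 for *Snrpg*, and in Ctrl 2 for *Snrpe*; *Snrpf* is low in Ctrl 1 and cKO 1 whether or not the copy is counted.

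Of 99 further spliceosome genes, 97 passed the filter on low values, with 0 higher and 1 lower in cKO at the unadjusted limit of limma and 0 at the adjusted one, beside 4.43% of all genes tested. Their median log2 fold change was 0.004, with 49 above 0 and 48 below. The called gene was *Dnajc8*, a cochaperone found with U2 proteins. It had 54.9, 43.9 and 42.6 FPKM in Ctrl and 36.9, 39.2 and 33.2 in cKO, without overlap (log2 fold change −0.36, 95% interval −0.69 to −0.02, limma p = 0.0395, adjusted p = 0.978, exact permutation p = 0.1). The groups also did not overlap for *Lsm4* and *Lsm8* of the U6 ring, *Sart3*, a U6 recycling factor, and *Smn1*, which loads the Sm ring (cKO higher, log2 fold changes 0.20, 0.22, 0.15 and 0.19), nor for *Cwc27*, a cyclophilin of the spliceosome, and *Pdcd7*, a protein of the minor spliceosome (cKO lower, −0.20 and −0.31). These 7 of 97 stand beside 8.68% of all genes tested. By list, the 7 genes of the U6 LSm ring had a median of 0.17, the 9 of the minor spliceosome 0.13, the 27 of the catalytic step −0.06, the 19 of the tri-snRNP and B complex −0.03, the 20 accessory genes of U1 and U2 0.12, and the 14 tested of snRNP assembly −0.002. Of the 12 SR family genes, *Srsf9* was higher (log2 fold change 0.40, limma p = 0.0414, adjusted p = 0.978, exact permutation p = 0.2), and of 25 hnRNP genes *Hnrnph2* was lower (−0.30, limma p = 0.0351, adjusted p = 0.978, exact permutation p = 0.1). The other SR genes, *Srsf1* being listed apart, and the other hnRNP genes were not called, and the family medians were 0.05 and −0.001.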

How the data were processed

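The authors sequenced poly-A RNA as paired ends, aligned reads to mm10 with HISAT2 2.0.5, counted them with featureCounts, and deposited FPKM and gene length for each gene. No source used here gives the annotation release, the use of strand or the handling of reads with several matches. From FPKM, gene length and 1 scale per library, each value was turned back into reads (all whole to within 0.05 read). The scale was not the total of reads on genes. It was 14997043 in Ctrl 1, against 15548757 reads on genes, and 17469501 in Ctrl 3, against 16756795. How it was set was not examined. No 2 libraries were identical, and every value column was used.

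Groups came from the labels. limma 3.58.1 (R 4.3.3, intensity trend, two-sided) was fitted to log2(FPKM + 1), with group as the only term. The fit covered 17180 genes whose average was 0.5 FPKM or more. It was also run on simulated data, in which genes varied independently, without the patterns that genes of a library share. The log2(FPKM + 1) scale understates changes of low genes. P-values were adjusted over all genes tested by Benjamini-Hochberg. The authors used DESeq2 on counts. Here the main test used the deposited FPKM, and reads were tested only with voom, on the recovered reads, as an alternative. The exact permutation test over 6 libraries cannot go below p = 0.1. The members, lists and rules were chosen with earlier results of these data known. Members named in full were those called, those without overlap, the 3 highest and 3 lowest and, per role, the one with the largest change, and others were named after their values were seen. Exons and copies came from GENCODE M21, with blastn, and promoters from RefSeq. Other pseudocounts, filters, scalings, voom, a replicate block, a germ cell covariate and leaving out each library were tried. Tables and plots were made in Python 3.11.15 (matplotlib 3.10.9, scipy 1.17.1, pandas 2.3.3, numpy 2.4.6).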

Additional observations from a re-analysis of the deposited data

How the results depend on the processing

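The median log2 fold change of the members stayed between 0.009 and 0.031 under 11 alternatives and between −0.033 and 0.065 when each library was left out. *Srsf1* stayed between −1.01 and −0.89, and between −1.07 and −0.90 with a library left out. The count of members at an unadjusted p below 0.05 was 1 as reported, and 1 with pseudocounts of 0.1 and 0.5, a minimum of 1 FPKM or median-ratio scaling. It was 2 with no minimum FPKM (*Prpf19* and *Sf3b3*). It was 0 with quantile normalization, voom, no intensity trend, protein-coding genes alone, and the germ cell covariate. With the replicate block it was also 0. The numbers were not shown to pair the libraries, the deviations of libraries with the same number correlating at −0.389, −0.03 and 0.117, and the block moved the count over all genes from 761 to 681. With a library left out the count of members ran from 0 to 4, with 4 without cKO 2 (*Sf3a2*, *Sf3b1*, *Prpf19* and *Dhx15*; 14.5% of all genes), 1 without cKO 3 and 0 for each of the others. Members without overlap numbered 3 to 16, with 5 without Ctrl 1, 6 without Ctrl 3, 16 without cKO 2 and 8 without cKO 3, where 17.9%, 21.1%, 34.1% and 15.2% of all genes did not overlap. Fewer libraries make overlap rarer by construction. The cause of the other differences was not tested. No result changed sign while called. *Snrpf* had the fewest reads of the members, with 127 in its lowest library, and the part of depth in its spread was not tested.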

Other observations

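*Cwc22*, a listed spliceosome gene outside the members whose protein carries the exon junction complex factor EIF4A3 to the spliceosome, was chosen after its values were seen. It had 7.20, 87.6 and 93.9 FPKM in Ctrl and 8.32, 6.86 and 76.7 in cKO. Ctrl 1, cKO 1 and cKO 2 were low and the other 3 libraries high, so the split ran across the groups while the labels give every library as C57BL/6 (log2 fold change −1.20, 95% interval −4.08 to 1.68, limma p = 0.355, adjusted p = 0.978, exact permutation p = 0.3). Whether the 6 libraries share 1 strain background was not tested. In all 38 members the highest library was at most 2.44 times the lowest.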
